A study of Homo sapiens with 22 samples.

Results

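Jun occupancy was compared between untreated K562 cells (0 h) and K562 cells treated with 25 nM PMA for 72 h, with 2 libraries at each time. K562 is an established human leukemia line of erythroid character that carries the BCR-ABL1 fusion, and PMA is a phorbol ester that activates protein kinase C and moves the line toward a megakaryocyte-like state. The count columns are marked WT. Cells were fixed in 1% formaldehyde for 10 min, and an aliquot held 500000 cells. CNR in the titles is read as CUT&RUN, where a nuclease tethered through an antibody cuts out DNA beside the bound protein. The members were all regions on chromosomes 1 to 22 and X of the deposited Jun table, 137719 of its 138731 regions and of 409446 regions in the tables of all 4 antibodies, read in 4 of the 22 libraries. Of these, 131947 had enough counts to be tested and 5772 did not. The 6 h Jun libraries entered the same fit and are given as side values. They share the 0 h libraries with the 72 h comparison, so agreement between the 2 comparisons is not independent. The labels do not say whether replicates were separate cultures, so p-values measure only the spread between these libraries, which may be technical.

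Jun is a basic leucine zipper protein that binds DNA as a dimer. With Fos family partners it forms AP-1, which recognises the TPA response element TGACTCA, named after another abbreviation for PMA. With partners of the ATF and CREB families it can bind the longer cyclic AMP response element TGACGTCA. AP-1 is activated by mitogen-activated protein kinases downstream of protein kinase C, and its sites are frequent in enhancers of cytokine, protease and adhesion genes.

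Promoter regions that carried one or the other of these elements differed in how often Jun rose or fell, and 3 examples of each are printed to show them. Most promoter regions carried neither: 5321 of the 5981 called lower and 405 of the 620 called higher. Each sequence is the 250 bases before the annotated start of the gene, read 5′ to 3′ on the gene's strand from RefSeq promoter sequences of GRCh38.p14. Capitals mark the element. The genes were chosen, after their values were seen, among those whose element lay inside a Jun region of large change. The first 3 held TGACGTCA and lost Jun at 72 h.
DUSP8: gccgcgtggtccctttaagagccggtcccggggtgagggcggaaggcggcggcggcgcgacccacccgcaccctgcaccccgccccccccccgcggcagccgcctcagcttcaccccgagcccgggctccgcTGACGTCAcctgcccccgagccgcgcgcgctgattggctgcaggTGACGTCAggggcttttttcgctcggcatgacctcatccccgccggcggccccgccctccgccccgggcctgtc
YWHAH: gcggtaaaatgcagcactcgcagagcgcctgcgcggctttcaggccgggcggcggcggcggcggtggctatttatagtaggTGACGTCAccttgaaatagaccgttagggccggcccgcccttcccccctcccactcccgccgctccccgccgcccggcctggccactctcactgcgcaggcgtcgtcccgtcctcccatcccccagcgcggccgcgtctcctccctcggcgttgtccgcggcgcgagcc
JUND: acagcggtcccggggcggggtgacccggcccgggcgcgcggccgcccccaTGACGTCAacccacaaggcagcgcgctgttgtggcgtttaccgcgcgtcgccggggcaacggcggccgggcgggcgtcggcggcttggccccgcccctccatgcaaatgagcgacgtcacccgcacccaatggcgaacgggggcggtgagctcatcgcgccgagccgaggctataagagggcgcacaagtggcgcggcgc
They lie at chr11:1572272-1572521 (minus strand), chr22:31944285-31944534 (plus strand) and chr19:18281623-18281872 (minus strand). The other 3 held TGACTCA or its reverse complement TGAGTCA and gained Jun.
GZMB: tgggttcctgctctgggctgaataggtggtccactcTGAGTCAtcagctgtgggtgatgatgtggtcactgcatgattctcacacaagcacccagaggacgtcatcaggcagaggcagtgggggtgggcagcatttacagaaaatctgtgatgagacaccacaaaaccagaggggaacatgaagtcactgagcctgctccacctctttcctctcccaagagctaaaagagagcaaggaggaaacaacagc
SORBS2: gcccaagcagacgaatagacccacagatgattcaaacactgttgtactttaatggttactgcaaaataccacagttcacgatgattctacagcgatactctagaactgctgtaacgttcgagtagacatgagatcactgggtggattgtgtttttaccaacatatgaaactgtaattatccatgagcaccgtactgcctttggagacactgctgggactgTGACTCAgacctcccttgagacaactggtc
CPA4: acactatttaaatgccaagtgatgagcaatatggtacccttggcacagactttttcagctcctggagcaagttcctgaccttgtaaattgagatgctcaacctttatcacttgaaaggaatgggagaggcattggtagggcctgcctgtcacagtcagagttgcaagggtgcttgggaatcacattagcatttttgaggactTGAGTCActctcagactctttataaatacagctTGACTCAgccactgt
They lie at chr14:24634191-24634440 (minus strand), chr4:185933129-185933378 (minus strand) and chr7:130292911-130293160 (plus strand).

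The libraries differed in depth and background between times. Total counts in regions were 7952946 and 8600736 at 0 h against 17245043 and 18883962 at 72 h. The mitochondrial chromosome took 24.0% and 27.7% of them at 0 h but 9.07% and 8.58% at 72 h. The peak lists held 31637 and 35072 peaks at 0 h against 92329 and 99102 at 72 h. These values move with time in all 4 libraries, and their part in the results was not tested. Levels are given as CPM, counts scaled to a TMM-adjusted library of 1000000, which sets the typical region near no change. Under it the median log2 fold change (72 h minus 0 h) of the tested regions was 0.18, against 0.44 when libraries were scaled by counts outside the mitochondrial chromosome, 0.74 by total counts and 0.95 by factors computed on regions that had peaks in all Jun libraries. Every direction below is therefore relative to the scaling. Differences between groups of regions in median log2 fold change moved little with it, but the shares called, and differences between those shares, did move. The other cell types whose markers were listed were hepatocytes, lymphoid cells, fibroblasts and monocytes. In that order, 4 of 5, 5 of 6, 4 of 5 and 5 of 5 of their markers had a tested Jun region. ALB, MS4A1 and COL3A1 had none. GATA1 and HBE1 are among the markers of the erythroid character of K562. H3K27ac at their strongest Jun regions had 0 h means of 71.8 and 105 CPM. The GATA1 region lay over the start of its neighbour HDAC6, so its value does not read GATA1 alone.

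Jun rose at 37091 regions and fell at 33541 of the 131947 tested, by edgeR's quasi-likelihood test at an adjusted p under 0.05. Calls made up 53.70% of the regions tested over all contigs, with 28.00% higher and 25.70% lower. The higher share of all calls was 52.5%, and it was 74.8% under scaling by total counts, 81.5% with factors from shared peaks and 44.0% in DESeq2. At least a 4-fold rise was seen at 12529 regions (9.50% of those tested) and at least a 4-fold fall at 7785 (5.90%). A 16-fold rise or more was seen at 437 regions and such a fall at 124.

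Rises mostly started low and gained listed peaks, and falls started from a higher median level. Regions called higher had a median of 1.66 CPM at 0 h, 3.16 at 6 h and 5.51 at 72 h. Of these regions, 74.3% overlapped a listed peak in neither 0 h library and in both 72 h libraries. So did 31.8% of the regions not called. Regions called lower had a median of 8.91 CPM at 0 h, 5.30 at 6 h and 3.39 at 72 h. Of these, 53.2% overlapped a peak in both 0 h libraries and 53.1% in both 72 h libraries, and 4.80% had peaks in both 0 h libraries and in neither at 72 h. The 72 h libraries also held more counts and more listed peaks, and the part of depth in these overlaps was not tested.

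Under TMM scaling, falls outnumbered rises at gene starts, and rises outnumbered falls in the rest of genes and just outside them. Within 1000 bp of a gene start, 53.2% of 13674 regions were called lower and 9.93% higher, with a median log2 fold change of -0.81. Elsewhere in gene spans 21.4% of 73216 regions were lower and 29.7% higher, with a median of 0.29. Outside genes but within 50000 bp of one, 19.1% of 34248 regions were lower and 32.8% higher, with a median of 0.43. In log2(CPM + 0.5), the median start region stood above the median of the other regions by 1.05 and 1.11 in the 0 h libraries and by 0.28 and 0.15 in the 72 h libraries, so the times did not overlap. The difference between start regions and the rest in median log2 fold change was -1.11, and it stayed between -1.03 and -1.20 under every alternative run. The direction at starts alone does depend on scaling. Under total counts 30.2% of start regions were lower and 17.6% higher, and with factors from shared peaks 21.4% were lower and 22.5% higher. Starts on chromosome 8 were not in the promoter table, and its 5756 regions were left out of this comparison.

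The plot by distance shows the same gradient in steps. Among regions within 0.5 kb of a start 65.0% fell, which dropped to 26.98% between 0.5 and 2 kb, 22.5% between 2 and 10 kb, 20.2% between 10 and 50 kb and 19.6% between 50 and 200 kb. The share that rose went from 6.98% within 0.5 kb to 33.5% between 50 and 200 kb.

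**Figure D1:**
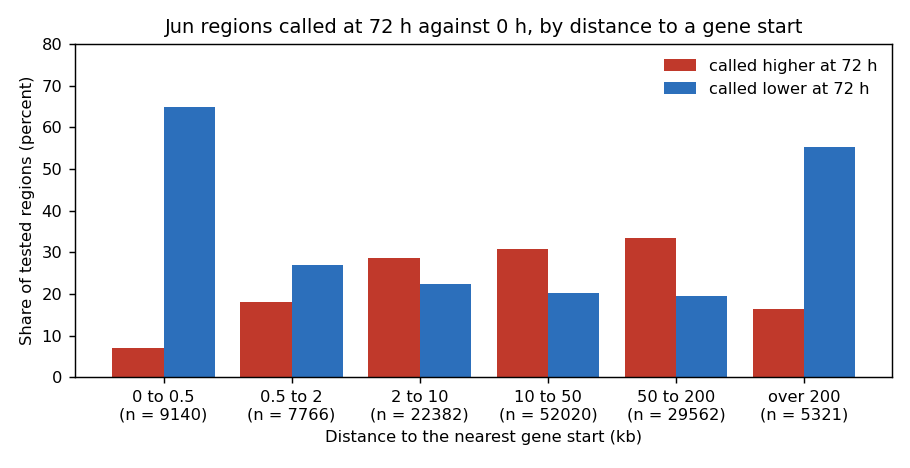
Share of tested Jun regions called higher (red) or lower (blue) at 72 h against 0 h, in percent, by distance in kb to the nearest gene start, under TMM scaling, with the number of regions under each pair of bars. Falls dominate within 0.5 kb (65.0%) and over 200 kb (55.2%), and rises are more frequent from 2 to 200 kb.

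Regions far from any gene fell mostly where they lay in gene-free stretches. Of 2300 regions in 30 stretches of over 1 Mb without a gene, which include the flanks of centromeres, 2227 were lower, with a median log2 fold change of -2.06. Together with 30 regions over nuclear copies of mitochondrial genes they took 6.88% and 5.81% of Jun counts at 0 h and 2.42% and 2.20% at 72 h. Without them, regions outside genes and farther than 50000 bp were lower in 23.1% and higher in 32.9% of cases, with a median of 0.44. Reads from near-identical copies cannot be placed with certainty, so these falls are uncertain.

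The largest losses in CPM all lay in such sequence. At chr3:93470288-93470886 Jun was 8352 and 7842 CPM at 0 h, then 9295 and 4996 at 6 h and 2084 and 1981 at 72 h. At chr1:629175-630025, over the mitochondrial gene copies MTND1P23 and MTND2P28, it was 3718 and 4690 CPM at 0 h and 1105 and 1068 at 72 h. The 72 h libraries lay below the 0 h libraries at both, as the rule that chose them required. A joined stretch at chr1:122503472-124237856 held 631 lower regions of 632 tested, with sums of 11088 and 8440 CPM at 0 h and 2619 and 2208 at 72 h. H3K27ac in the same stretch was lower in 19 and higher in 0 of 97 tested regions. It was lower in 5 of 5 at chr1:629175-634226 and in the 1 at chr3:93470288-93470886. None was called of 35 at chr1:143184639-143275916 or of 6 at chr16:46380720-46401605. Rad21 was not called at chr3:93470288-93470886 (means of 10882 CPM at 0 h and 12599 at 72 h) or at chr1:629175-630025 (4724 and 5148). The mitochondrial share of counts fell with these regions, and its part in the result was not tested.

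Regions with the largest relative gains lay within gene spans, outside genes and, for the one nearest ACKR3, at a gene start. Of all tested regions, 55.5% lay elsewhere in gene spans, 26.0% outside genes within 50000 bp and 10.4% at gene starts. INHBA encodes the subunit of activin A, a ligand of the TGF-beta family. At chr7:41709367-41710122, inside INHBA-AS1 and 3961 bp from INHBA, Jun was 1.02 and 0.29 CPM at 0 h, then 7.26 and 11.9 at 6 h and 17.2 and 19.2 at 72 h. Both 72 h libraries stood far above both 0 h libraries, with a log2 fold change of 4.78 (SE 0.38, edgeR adjusted p = 1.07e-08) that was 5.94 without 0 h replicate 1 and 4.14 without 0 h replicate 2. All 5 tested regions of INHBA rose. H3K27ac there went from a mean of 0.16 to 72.1 CPM and Rad21 from 1.21 to 10.2 CPM.

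COL6A2 encodes a chain of collagen VI. At chr21:46084997-46085936, outside genes and 12176 bp from COL6A2, Jun was 1.17 and 0.72 CPM at 0 h, then 22.0 and 25.0 at 6 h and 28.7 and 27.4 at 72 h (log2 fold change 4.88, SE 0.30). Most of that gain was present at 6 h, and no 0 h library came near either later time. At chr2:101517257-101518403, 42145 bp from RFX8, Jun was 1.896 and 0.57 CPM at 0 h, then 7.49 and 6.02 at 6 h and 30.7 and 29.6 at 72 h, so the later step was the larger one. Introns or other parts of GRIN2A, an NMDA receptor subunit gene, and MAPK4, an atypical MAP kinase gene, held regions that went from means of 0.58 to 17.96 and from 0.51 to 16.2 CPM, on 7 and 1 and on 7 and 0 counts at 0 h. Regions 24178 bp from MYEOV and, within LOC105373949, 187570 bp from ACKR3, a scavenging chemokine receptor gene, went from 0.80 to 20.7 and from 0.29 to 14.6 CPM, the latter on 4 and 0 counts at 0 h. With so few counts the size of the fold is poorly set. Without 0 h replicate 2 the log2 fold change was 3.97 at MAPK4, 4.62 at ACKR3 and 4.12 at GRIN2A, and without 0 h replicate 1 it was 10.6, 10.5 and 6.87. At chr2:71841620-71842227, 154857 bp from DYSF, only 1 count was seen in both 0 h libraries, and the ratio at 72 h was 170 (95% exact binomial interval 30.3 to 6715, counting error only).

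The 8 regions with the largest relative losses had 0 h means from 7.38 to 56.8 CPM. The rule asked for a mean of at least 3.33 CPM over the 4 libraries, so large falls could pass only with a high 0 h level. At chr1:205157044-205158388, within DSTYK, which encodes a dual-specificity kinase, Jun was 38.9 and 36.7 CPM at 0 h, then 8.40 and 4.56 at 6 h and 0.90 and 1.82 at 72 h (log2 fold change -4.76, SE 0.28, edgeR adjusted p = 9.65e-10), and the log2 fold change was -5.45 without 72 h replicate 2. H3K27ac fell there from 35.2 to 1.07 CPM and Rad21 from 10.9 to 2.32 CPM. ZFPM2 on chromosome 8, a GATA cofactor gene, held a region at 54.3 and 59.3 CPM at 0 h and 3.95 and 3.40 at 72 h. The region 1537 bp from OAT, the ornithine aminotransferase gene, was 10.6 and 12.5 CPM at 0 h and 0.57 and 0.38 at 72 h. Those 3 regions were already lower at 6 h.

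The other falls of this size lay 10629 bp from CYTL1, 575652 bp from RGS18, 77314 bp from ANKRD55, 2066 bp from PLPPR1 and 2229 bp from RHOXF2B. RGS18 encodes a regulator of G-protein signalling that is abundant in platelets. Jun near it was 22.6 and 30.2 CPM at 0 h and 1.38 and 1.40 at 72 h, although the region is too far for the gene to be more than its nearest neighbour. Near PLPPR1 the mean fell from 7.38 to 0.11 CPM, with 5 counts left over both 72 h libraries. In none of the 16 regions did the 0 and 72 h libraries overlap, as the rule that chose them required. Over all tested regions they did not overlap at 79.3%.

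**Figure D2:**
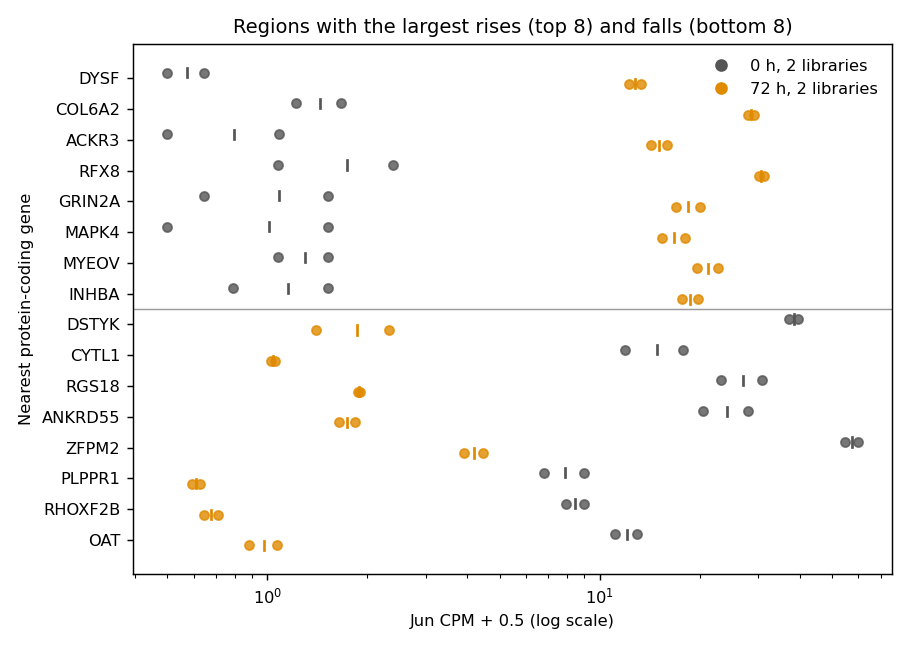
Jun CPM + 0.5 on a log scale for the 8 largest relative rises (top) and 8 largest falls (bottom), named by the nearest protein-coding gene. Points are libraries (grey 0 h, orange 72 h; 2 each) and ticks are group means; INHBA rises from a mean of 0.65 to 18.2 CPM and DSTYK falls from 37.8 to 1.36 CPM.

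By absolute gain, the 6 strongest regions included some on chromosomes 22 and 9 near the partners of the BCR-ABL1 fusion, which K562 is known to carry in extra copies. Copy number was not measured here. In the immunoglobulin lambda locus (IGL) at chr22:22727254-22729303 Jun was 43.5 and 40.3 CPM at 0 h, then 96.5 and 99.8 at 6 h and 218 and 197 at 72 h. At the start of LOC124904606 on chromosome 19 (chr19:380875-383081), the second in size, Jun was 38.5 and 46.2 CPM at 0 h and 139 and 127 at 72 h. Jun in the region within FIBCD1 at chr9:130927797-130928944 was 22.2 and 17.6 CPM at 0 h and 105 and 104 at 72 h. A region 10984 bp from CRKL, an adaptor of the BCR-ABL1 kinase, was 31.2 and 34.3 CPM at 0 h, then 115 and 144 at 6 h and 119 and 113 at 72 h. It had reached its later level at 6 h. The region within DRC9 rose from 5.83 and 6.31 CPM to 89.0 and 88.2, and that within LOC100506403, near a gene start, from 13.3 and 13.8 to 86.1 and 84.6. All libraries of 72 h lay above those of 0 h at these regions, as the rule that chose them required.

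Called regions within 12.5 kb of each other were joined, giving 20472 higher and 20380 lower loci. Of the higher loci 1118 held at least 5 regions and 173 at least 10. The locus with the largest summed gain, beside the immunoglobulin lambda genes and nearest GGTLC2, went from 234 and 189 CPM at 0 h to 862 and 813 at 72 h, over 19 regions called higher and 1 called lower.

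TRIO encodes a guanine nucleotide exchange factor that acts on the cytoskeleton. All 25 tested regions of its locus at chr5:14399332-14510333 rose. The locus was formed by joining regions called higher and was picked for its summed gain, so this follows largely from the rule. Their sum was 64.2 and 47.7 CPM at 0 h, then 101.01 and 102.9 at 6 h and 338 and 311 at 72 h, which is 5.80-fold higher at 72 h than at 0 h. The single regions spanned 0.44 to 7.96 CPM at 0 h and 2.04 to 50.8 CPM at 72 h, with folds from 2.28 to 16.1. H3K27ac rose at all 20 of its tested regions there, from a sum of 4.57 to 687 CPM.

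**Figure D3:**
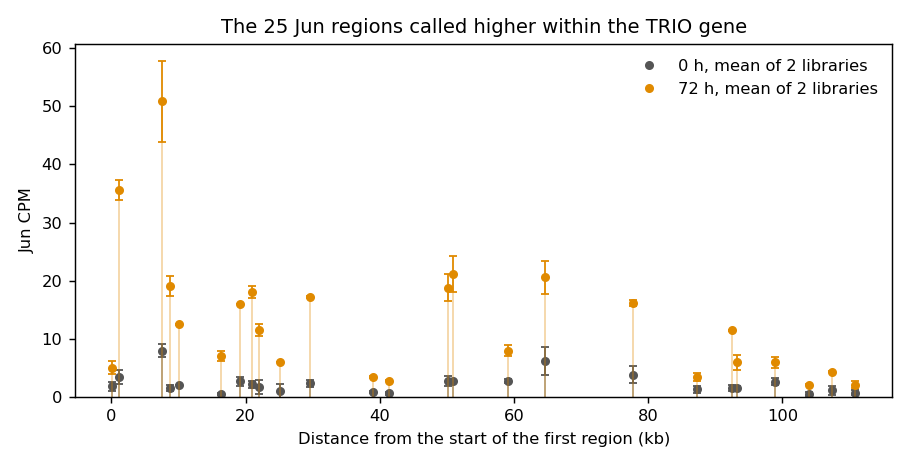
Mean Jun CPM of the 25 regions called higher within TRIO, by distance in kb from the start of the first one, at 0 h (grey) and 72 h (orange), with SD over 2 libraries as error bars. All 25 are higher at 72 h, as joining only regions called higher would give, and the strongest reaches 50.8 CPM.

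Other loci with large gains were a stretch at chr14:100949641-101058943 over LOC124903407, with 26 higher regions of 27 tested and a sum that went from 61.8 to 357 CPM, and a stretch over CTSE, RAB7B and SLC26A9, with 23 of 25 regions and a sum from 104 to 324 CPM. CTSE encodes the protease cathepsin E. The sum of the locus near TOP3B on chromosome 22 went from 88.4 to 305 CPM, with 8 regions higher and 1 lower of 13 tested. In each of these loci both 72 h sums lay above both 0 h sums, as joining only regions called higher would give.

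Among regions near protein-coding genes, 2 of the 6 largest losses in CPM lay at gene starts, those of CIC and KMT2E-AS1, and 4 lay elsewhere in gene spans. These regions were picked after the data were seen, by limiting the rule to such regions. At the start of CIC, a transcriptional repressor downstream of MAP kinase signalling, Jun was 295 and 284 CPM at 0 h, then 77.6 and 77.4 at 6 h and 47.3 and 47.4 at 72 h (log2 fold change -2.61, SE 0.20). The fall was 6.12-fold, with most of it present at 6 h. H3K27ac there fell from a mean of 90.2 to 42.5 CPM, and Rad21 had means of 44.9 and 46.2 CPM. Within KMT2E-AS1, 616 bp from the chromatin regulator gene KMT2E, Jun was 157 and 180 CPM at 0 h and 33.8 and 31.2 at 72 h. Within PFKP, the platelet phosphofructokinase gene, it was 203 and 189 CPM at 0 h and 61.4 and 59.2 at 72 h. Within KIF5C, a kinesin gene, it was 201 and 269.9 CPM at 0 h and 58.5 and 60.2 at 72 h. The remaining regions lay in ROCK1P1 and DUX4. ROCK1P1 and DUX4 have near-identical copies, and their falls are uncertain.

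Over promoter windows, the largest relative rise was at SERPINA1, the alpha-1 antitrypsin gene, with 0 and 2 counts at 0 h and 8.27 and 9.38 CPM at 72 h (ratio 61.3, 95% exact binomial interval 16.9 to 508). The start of OR7E24, an olfactory receptor gene, went from 2.04 and 1.72 CPM to 20.4 and 19.5. The start of LOC124901788, on chromosome 7, went from 3.06 and 3.30 CPM to 46.1 and 43.8. GALNT18-AS1 and 2 regions of LOC124903082 rose by log2 fold changes between 3.49 and 3.55.

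The largest falls at promoters included those of DUSP8, a phosphatase that inactivates MAP kinases, and YWHAH, which encodes the 14-3-3 eta adaptor. At DUSP8 (chr11:1572128-1572706) Jun was 50.6 and 40.3 CPM at 0 h, then 14.1 and 14.8 at 6 h and 6.28 and 5.01 at 72 h (log2 fold change -3.01, SE 0.20). At YWHAH (chr22:31943995-31944559) it was 37.6 and 38.4 CPM at 0 h, then 12.3 and 8.21 at 6 h and 5.18 and 4.54 at 72 h (-2.97, SE 0.21). Both promoters are printed above with the element TGACGTCA. At the start of HEPACAM2, Jun went from 52.8 and 54.6 to 6.80 and 7.60 CPM with H3K27ac from 108 to 5.94 CPM and Rad21 from 26.6 to 5.51 CPM. RPS6KL1, LOC105372725 and LOC105376356 were the remaining 3, with log2 fold changes of -3.46, -3.74 and -3.08. At LOC105376356 the 6 h libraries were at 34.5 and 42.2 CPM, against 41.4 and 60.5 at 0 h and 6.99 and 5.09 at 72 h, so its fall came after 6 h.

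The DNA elements in promoter windows differed between regions that rose and regions that fell. Windows of 300 bases, from 250 before to 50 after each RefSeq start, were searched for exact letters on both strands. TGACTCA or TGAGTCA was in 4.94% of all 34683 windows, in 33.0% of the 679 over a region called higher and in 3.81% of the 8560 over a region called lower. TGACGTCA was in 1.85% of all windows, in 0.44% of those over higher regions and in 5.75% of those over lower regions. It was in 24.8% of the 707 windows over regions that fell 4- to 8-fold and in 2 of the 17 over regions that fell over 8-fold. The letters AGATAA, which hold the core bound by GATA factors, were in 10.4% of all windows, 14.0% of those over higher and 5.61% of those over lower regions. The letters CCGGAAG, bound by ETS factors, were in 10.2%, 4.42% and 22.5% of the same sets. Most of all windows met no tested Jun region. In the 2703 windows over tested regions not called, the shares were 13.5% for TGACTCA or TGAGTCA and 0.78% for TGACGTCA. They were 9.58% for AGATAA and 15.8% for CCGGAAG. Under the alternatives, added after seeing the data, the TGACTCA or TGAGTCA share over higher regions ran from 27.8% to 37.5% and the TGACGTCA share over lower regions from 5.41% to 11.7%. A match describes the window and is not evidence of binding by a given factor.

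Counted by region, 372 of 389 promoter regions with TGACGTCA and without the shorter element were lower and 3 were higher, with a median log2 fold change of -1.84. Their median level was 20.1 and 20.9 CPM at 0 h, then 9.53 and 9.49 at 6 h and 5.80 and 5.22 at 72 h. With TGACTCA or TGAGTCA alone, 276 of 828 were lower and 212 higher, with a median of -0.14 and levels of 6.85 and 6.45 CPM at 0 h and 6.99 and 6.60 at 72 h. With neither, 5321 of 7659 were lower and 405 higher, with a median of -1.07. GZMB, the granzyme B gene, went from 0.51 to 6.23 CPM at its start. SORBS2, a cytoskeletal adaptor gene, went from 1.81 to 14.2 CPM and CPA4, a carboxypeptidase gene, from 2.09 to 13.5 CPM. All 3 carry the shorter element in the sequences printed above.

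Acetylation and cohesin at the Jun regions were read from separate libraries. H3K27ac was tested at 94865 regions, of which 43.40% were called higher and 38.10% lower. At 1460 Jun regions that rose over 8-fold and met an H3K27ac region, its median log2 fold change was 5.97, and 99.7% were called higher. At 434 that fell over 8-fold it was -3.37, and 98.4% were called lower. These were 57.6% of the Jun regions with such rises and 37.4% of those with such falls. A region with few counts at 0 h could pass the count filter only through later libraries, which favours rises among those tested. The same holds for Rad21, so these shares are not independent of the filter. Rad21 was tested at 83750 regions, of which 15.40% were called higher and 7.91% lower. Only 25.7% of the Jun regions called higher met a Rad21 region, against 68.7% of those called lower. Of the 9545 called higher that met one, 69.5% were called higher for Rad21. Of 23053 called lower, 12.4% were called lower for Rad21, with a median of -0.09. The median Rad21 change was -1.34 at falls over 8-fold and between -0.17 and 0.09 in the other classes of falls.

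**Figure D4:**
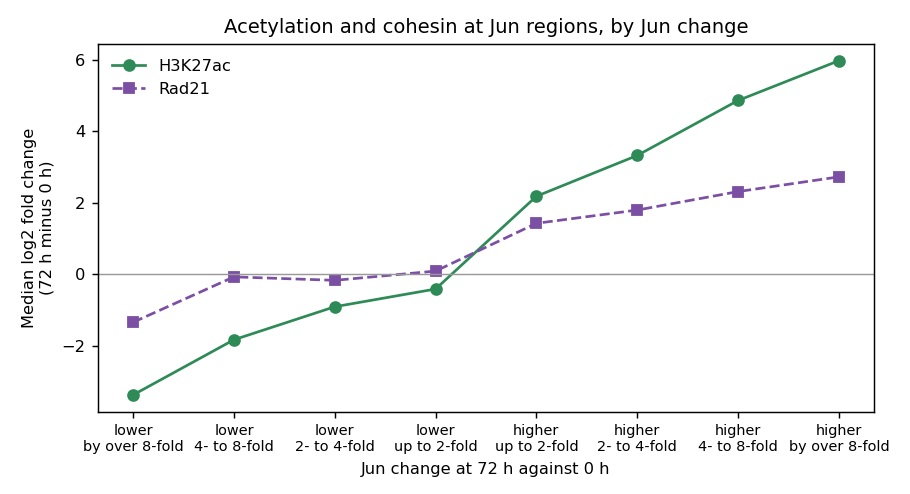
Median log2 fold change (72 h minus 0 h) of H3K27ac (circles) and Rad21 (squares) at Jun regions called at 72 h, in 8 classes of Jun change. Only Jun regions that met a tested region of the other antibody count. H3K27ac runs from -3.37 to 5.97 and Rad21 from -1.34 to 2.72.

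The genes of pathways known to act around AP-1 were described by their strongest Jun region, the one with the highest mean CPM within 10000 bp of the gene. Among 17599 protein-coding genes with such a region, 73.80% were called, 55.10% lower and 18.60% higher, with a median log2 fold change of -0.73. These shares hold for TMM scaling and 10000 bp. They were not taken under other settings, so list counts given for those have no all-gene share to be read against. Over all tested regions, 81.5% of calls were higher with factors from shared peaks. The strongest region can lie over a neighbouring gene, which is named where it does.

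**Figure D5:**
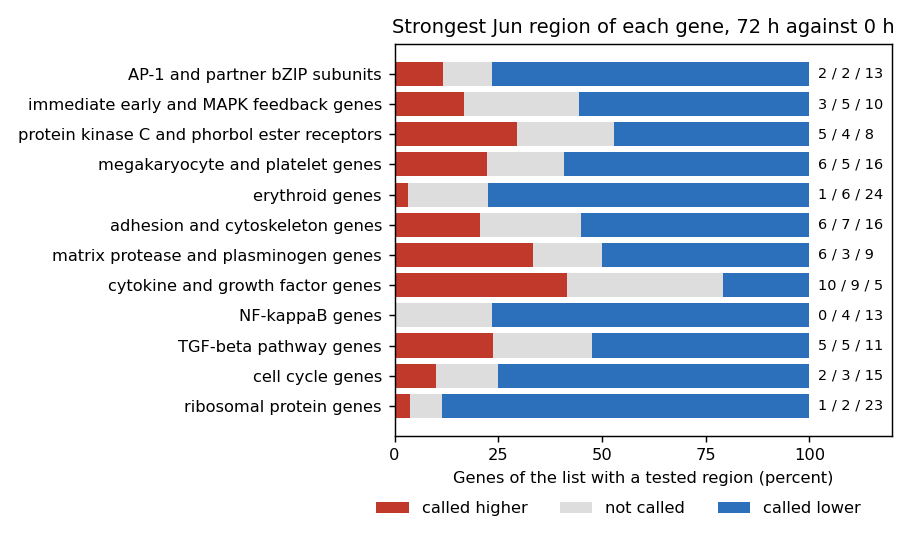
Share of the genes of 12 lists whose, under TMM scaling, strongest Jun region was called higher (red), not called (grey) or called lower (blue), in percent of genes with a tested region; the numbers at the right are genes in that order. Cytokine and growth factor genes have 10 higher and 5 lower (10 and 13 when regions within 50000 bp are taken), and ribosomal protein genes 1 higher and 23 lower.

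Genes of AP-1 subunits and partner proteins had 13 lower and 2 higher of 17 (8 and 4 with factors from shared peaks). Over all 110 regions of the list, 35.5% were lower and 27.3% higher. JUND, JUN and FOSB encode AP-1 subunits. At the JUND start Jun was 88.2 and 88.7 CPM at 0 h, then 22.9 and 22.1 at 6 h and 14.8 and 11.6 at 72 h (log2 fold change -2.75, SE 0.19). At the JUN start it was 115 and 117 CPM at 0 h, then 25.9 and 39.2 at 6 h and 21.3 and 19.0 at 72 h. At the FOSB start it was 71.2 and 72.8 CPM at 0 h, then 30.2 and 34.7 at 6 h and 16.9 and 15.2 at 72 h. H3K27ac at the same regions fell at JUND (log2 fold change -0.55) and rose at JUN (0.29) and FOSB (1.81). BATF2, a partner of Jun proteins, had a region outside genes that rose from 2.19 and 3.15 to 16.1 and 13.8 CPM, with 13.6 and 15.3 at 6 h.

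Immediate early and MAP kinase feedback genes had 10 lower and 3 higher of 18, but 6 lower and 7 higher with factors from shared peaks. Over all 96 regions of the list, 35.4% were lower and 27.1% higher. Beside DUSP8, the starts of SPRY1, an inhibitor of receptor tyrosine kinase signalling, and DUSP10, a phosphatase of stress kinases, fell by log2 fold changes of -2.88 and -2.12. DUSP10 was 92.0 and 94.3 CPM at 0 h and 21.5 and 21.5 at 72 h. The region of IER3, an early response gene, lay outside genes and rose from 3.79 and 4.01 to 17.2 and 16.9 CPM.

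Of the protein kinase C and phorbol ester receptor genes, 8 were lower and 5 higher of 17, but 4 lower and 7 higher with factors from shared peaks. PRKCE, which encodes the epsilon kinase of this family, rose along its length: 42 of its 61 tested regions were higher and 0 lower. Its strongest region went from 8.90 and 10.6 to 27.1 and 23.6 CPM. PRKCH had 13 of 24 regions higher and 2 lower, and its strongest went from 10.2 and 9.46 to 24.8 and 25.9 CPM. CHN1, the gene of a phorbol ester-binding Rac regulator, rose from 1.60 and 3.15 to 8.32 and 8.96 CPM. PRKD1, a protein kinase D gene, fell from 10.9 and 11.9 to 2.85 and 1.91 CPM, and RASGRP4 and PRKD2 fell by log2 fold changes of -1.75 and -1.45. Over all 299 regions of the list, 38.5% were higher and 17.4% lower.

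Megakaryocyte and platelet genes had 16 lower and 6 higher of 27, and under factors from shared peaks 4 lower and 8 higher. Over all 229 regions of the list the order was the other way, with 31.4% higher and 25.8% lower. PLEK, which encodes the platelet kinase C substrate pleckstrin, fell from 12.98 and 13.5 to 1.14 and 0.93 CPM inside the gene. CD9, a tetraspanin of platelets, rose inside the gene from 2.04 and 2.15 to 11.5 and 12.99 CPM, and 7 of its 15 regions rose with 0 lower. ITGA2, the collagen receptor subunit gene, had 15 of 18 regions higher and 0 lower. Its strongest region was 9.63 and 16.1 CPM at 0 h and 22.1 and 25.3 at 72 h, and that call was lost without 0 h replicate 1 or 72 h replicate 2. The region of SELP, the P-selectin gene, lay over the neighbouring F5 and rose from 6.12 and 3.58 to 13.5 and 14.9 CPM. The strongest region of ITGB3, the fibrinogen receptor subunit gene, went from 59.8 to 31.7 CPM for Jun, while H3K27ac there went from 23.8 to 114 CPM. That Jun call was lost under total counts and with factors from shared peaks. The region near GP6 lay over GP6-AS1 and that near F2RL3 over CPAMD8, and both fell.

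Erythroid genes had 24 lower and 1 higher of 31, and 15 lower and 2 higher under factors from shared peaks. Over their 171 regions, 52.6% fell and 7.60% rose. Near SLC4A1, the red cell anion exchanger gene, Jun was 38.8 and 41.3 CPM at 0 h, then 6.36 and 6.57 at 6 h and 8.13 and 6.92 at 72 h. Within ALAS2, the heme synthesis gene, it was 47.5 and 54.8 CPM at 0 h, then 97.2 and 75.0 at 6 h and 11.8 and 9.46 at 72 h, so it stood above the start level at 6 h and below it at 72 h. ZFPM1, the GATA1 cofactor gene, fell at its start from 37.0 and 36.3 to 9.27 and 8.32 CPM. KLF1, the erythroid factor gene, fell from 18.7 and 17.9 to 4.42 and 4.67 CPM in a region over GCDH, and all 4 of its regions were lower. BCL11A, a repressor of fetal globin genes, was the 1 that rose, from 7.29 and 8.46 to 13.03 and 16.1 CPM. Its call was lost without 72 h replicate 2.

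Adhesion and cytoskeleton genes had 16 lower and 6 higher of 29, but 11 lower and 12 higher with factors from shared peaks. Over all 346 regions of the list, 34.4% were higher and 26.0% lower. CD44, the hyaluronan receptor gene, had 11 of 15 regions higher and 0 lower, and its strongest went from 3.50 and 6.45 to 23.4 and 22.4 CPM. TNS3, a focal adhesion gene, had 29 of 38 regions higher and 0 lower. VCL, the vinculin gene, fell from 83.6 and 88.2 to 29.6 and 28.4 CPM. The strongest regions listed for FLNA and ITGA6 lay over EMD and PDK1-AS1.

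Of the matrix, protease and plasminogen genes, 9 were lower and 6 higher of 18, but 5 lower and 9 higher with factors from shared peaks. Of their 100 regions 41.0% were higher and 20.0% lower. THBS1, the thrombospondin gene, rose from 0.73 and 2.29 to 8.56 and 7.94 CPM in a region over LOC124903470, with a log2 fold change of 2.43 that was 1.84 without 0 h replicate 1 and 3.48 without 0 h replicate 2. The starts of FN1, the fibronectin gene, and TIMP3, a metalloproteinase inhibitor gene, fell from 8.60 and 8.03 to 1.24 and 1.40 CPM and from 5.69 and 6.31 to 0.76 and 0.98 CPM. ADAMTS1, a protease gene, fell by a log2 fold change of -3.33 near the gene, which was -4.04 without 72 h replicate 2. None of FN1, TIMP3 and ADAMTS1 met a tested H3K27ac region there.

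Cytokine and growth factor genes had 10 higher and 5 lower of 24, and 15 and 2 with factors from shared peaks, but 10 higher and 13 lower when the strongest region within 50000 bp of the gene was taken. Over all 110 regions of the list, 38.2% were higher and 19.1% lower. LIF and OSM, neighbouring genes of the interleukin 6 family, both rose. Jun near LIF was 1.46 and 1.00 CPM at 0 h, then 9.76 and 14.4 at 6 h and 6.70 and 5.48 at 72 h. Near OSM it was 2.04 and 3.01 CPM at 0 h, then 10.2 and 15.7 at 6 h and 10.5 and 7.43 at 72 h. Both 6 h libraries lay above both 72 h libraries near LIF, and the 2 times overlapped near OSM. All 5 regions of CCL2, a monocyte chemokine gene, rose, and its strongest went from 13.9 and 15.6 to 38.7 and 40.3 CPM. The regions of CXCL8 and AREG fell, from 28.6 and 21.2 to 6.66 and 6.79 CPM and from 55.9 and 58.2 to 20.4 and 21.1 CPM.

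NF-kappaB genes had 13 lower and 0 higher of 17, and 7 lower and 2 higher under factors from shared peaks. Over all 98 regions of the list, 30.6% were lower and 21.4% higher, near the 25.70% and 28.00% of all tested regions. Near NFKBIZ, an inhibitor family member gene, Jun was 11.4 and 11.3 CPM at 0 h and 0.86 and 0.98 at 72 h, and all 4 of its regions fell. The regions for TNFAIP3, a deubiquitinase gene, and TRAF1 lay over WAKMAR2 and PHF19 and fell by log2 fold changes of -2.06 and -1.78. The start of RELA, a subunit gene, fell from 38.4 and 39.1 to 9.27 and 9.38 CPM, while H3K27ac had a log2 fold change of 0.02.

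TGF-beta pathway genes had 11 lower and 5 higher of 21, but 7 lower and 8 higher with factors from shared peaks. Over all 267 regions of the list, 27.3% were higher and 21.3% lower. Beside INHBA, TGFBR3, a co-receptor gene, fell from 56.2 and 59.6 to 15.3 and 15.8 CPM, and 9 of its 25 regions were lower. The region within SMAD2 overlapped the mitochondrial gene copy MTCO2P2 and is uncertain, and that for TGFB3 lay over the start of IFT43.

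Genes of the cell cycle had 15 lower and 2 higher of 20, and ribosomal protein genes 23 lower and 1 higher of 26. With factors from shared peaks these were 8 and 3, and 14 and 1. Over their 124 and 98 regions, 42.7% and 48.0% were lower and 12.1% and 4.08% higher. Within CCND3, a D-type cyclin gene, Jun fell from 82.8 and 78.8 to 21.5 and 19.5 CPM, and 10 of 19 regions were lower. The region for CDK4 lay over the start of TSPAN31 and fell from 69.3 and 67.1 to 12.8 and 12.9 CPM.

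Marker genes of other cell types moved in both directions. All 4 hepatocyte markers with a region were higher, SERPINA1 and APOA1 among them, and all 5 monocyte and macrophage markers were lower, of which 2 were with factors from shared peaks. The calls of APOB and TTR were lost in DESeq2 and without 0 h replicate 2 or 72 h replicate 2. The regions for CD68, CD14 and LYZ lay over the starts of EIF4A1, TMCO6 and YEATS4. For lymphoid markers 4 of 5 were lower and 0 higher, and for fibroblast markers 1 of 4, PDGFRA, was higher. Over all regions of these lists, 9 of 37 were lower and 7 higher for monocytes and macrophages. For hepatocytes 10 of 13 were higher and 0 lower. For lymphoid cells 7 of 23 were lower and 3 higher, and for fibroblasts 7 of 20 were higher and 1 lower.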

How the data were processed

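Jun, H3K27ac and Rad21 were read from the deposited region tables. The authors deposited whole-number read counts per region and library, with a log2 fold change and an adjusted p-value per later time, per the file headers. The deposited peak lists, 1 per library, hold the authors' fold enrichment (a ratio), −log10 p-value and −log10 q-value, and were used for peak positions. The submitters' processing notes name Trim Galore 0.4.3, BWA 0.7.17, SAMtools 1.9, deepTools 3.0.1, MACS2 and bedtools 2.26, and the builds hg19 and hg38. The positions used here fell on gene starts of GRCh38. How regions were built is not given in the sources used here.

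On the counts, edgeR 4.0.16 in R 4.3.3 was run over the whole table: filterByExpr, TMM, glmQLFit and glmQLFTest on all 6 Jun libraries without a block, with Benjamini-Hochberg adjustment over 132947 regions. The SE is the log2 fold change divided by the square root of F. H3K27ac and Rad21 were fitted alike. The procedure was tested on simulated data. Counts in regions are not read depth. With 2 libraries against 2 an exact permutation test cannot go below p = 0.333, so none is given for single values. Intervals cover counting error only.

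Gene names and starts came from RefSeq tables of GRCh38.p14, whose promoter table holds 15812 of 19974 protein-coding genes. Table starts were taken as counted from 0 and are printed 1-based. Regions named were called regions with a mean CPM at or above the median and no overlap between times: the 8 largest rises and falls in log2(mean CPM + 0.5), 1 per nearest gene, the 6 largest in CPM, the 6 largest at promoters, the 5 loci of largest summed change, and up to 4 called genes per list. Others were named after their values were seen. The members and lists were chosen with earlier results of these data known. Alternatives were other scalings, DESeq2 1.42.0, other filters, a fold threshold, a replicate block, leaving out each library and, for loci, joining at 5000 bp. CTCF was not used here. Some listed genes that the counts include are not reported here.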

Additional observations from a re-analysis of the deposited data

How the results depend on the processing

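The count of Jun calls was 70632 and ranged from 45700 to 58864 when 1 library was left out, with 38156 calls when a mean count of at least 50 was asked. The higher share of calls, 52.5%, was 74.8% under total counts, 63.4% under total counts without mitochondrial regions, 81.5% with factors from shared peaks, 53.8% at a mean count of at least 50 and 54.2% without regions in gene-free gaps or over mitochondrial copies, an alternative added after seeing the data. It fell under an even split in DESeq2 (44.0%), with only the 0 and 72 h libraries fitted (49.7%), without 72 h replicate 1 (49.5%) and without 72 h replicate 2 (45.4%), and it stayed above it without either 0 h library, with a range of 45.4% to 51.3% over the libraries left out. The start-minus-other difference of -1.11 was -1.20 at a mean count of at least 50 and -1.18 to -1.03 with 1 library left out. H3K27ac calls, 77289, were 47611 at that filter. Rad21 calls, 19527, were 7453 in DESeq2, 4841 at that filter and 8301 to 19900 with 1 library left out. Same-numbered libraries did not deviate together (correlations of -0.0047 for 0 and 72 h Jun), so the replicate block, a pairing by number alone, is given only here: it called 67759 Jun regions with a higher share of 52.3%, 76737 H3K27ac and 21742 Rad21 regions. Of 118 named or listed Jun regions, 109 stayed on the same side of the threshold under all alternatives run, 9 lost the call under at least 1 (ITGB3, ITGA2, BCL11A, APOB, TTR, LYZ, CD79A, CSF1R and HBE1), and 0 changed direction. With joining at 5000 bp, the largest piece of a locus stood for it. Its summed change moved by more than the spread between libraries at 10 of the loci checked, stayed within it at 5 and reversed at 0. The lower depth at 0 h limits what can be said of regions with few counts there.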

Other observations

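The authors' deposited table gives each Jun region a class label. By the authors' deposited log2 fold changes at 72 h, regions labelled upLate were 3409 positive and 3344 negative, and those labelled downLate were 1324 positive and 1235 negative. The labels were therefore not used.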
